A study of Caenorhabditis elegans with 2 samples.

Results

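The broad MRG-1 domains described here are the peaks of 10 kb or more in a chromatin immunoprecipitation and sequencing (ChIP-seq) peak list from Caenorhabditis elegans. They were chosen by width alone, as peaks whose end minus start plus 1 was at least 10000 bp. This gave 446 domains among 3782 peaks, and the other 3336 peaks were narrower. The study held a library of DNA precipitated with an MRG-1 antibody and a library of input DNA, 1 of each. Both came from hermaphrodites of strain fem-2(b245), which carries the b245 allele of the sex-determination gene fem-2 on chromosome III. The animals were labelled as young adults with a germline and a culture temperature of 20 °C, although the growth protocol speaks of gravid adults. Whole animals were ground before crosslinking, so cell types cannot be told apart.

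MRG-1 is a chromodomain protein and the worm relative of mammalian MRG15. Proteins of this family are known for reading methylation of histone H3 at lysine 36, a mark laid down over the bodies of transcribed genes. In the worm, MRG-1 is required for the development of germ cells and was found by staining mainly on the autosomes of germline nuclei. Autosomes of C. elegans have gene-rich centres with little recombination, and outer arms with more repeats and more recombination.

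All values below come from 1 peak list, and no replicate check was possible. Peaks of 1 library are not replicates of a condition, so no p-value is given. The 95% intervals are exact binomial intervals for shares and order-statistic intervals for medians. They cover counting error only and treat neighbouring peaks as independent. Coordinates are those of WormBase WS220. The read depth behind the list is unknown, and genes and sequence under the domains were not analysed here. Since width defined the set, statements on width and on covered bases describe the choice and support nothing. The authors' score comes from the same comparison as the width and is treated in the same way.

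The domains were few but held much of the bound sequence. They made up 11.8% of the peaks (95% interval 10.8 to 12.9%) and 38.2% of all covered bases, or 6.75 of 17.7 Mb. The narrowest was 10005 bp and the widest 41889 bp. The median domain was 13580.5 bp wide, and the middle 50% of widths lay between 11469.5 and 17029 bp. Of the 446, 167 reached 15 kb, 74 reached 20 kb and 6 reached 30 kb. Narrower peaks had a median width of 2362 bp. When all peaks were taken from the widest down, 687 peaks, the last of them 7595 bp wide, held 50% of the covered bases.

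The threshold cut through a continuous range of widths. The narrowest domains inside it were 10005 bp (I:6036700-6046704), 10015 bp (I:2722044-2732058) and 10037 bp (II:14150165-14160201). The widest peaks outside it were 9981 bp (V:12056255-12066235), 9974 bp (V:14518053-14528026) and 9955 bp (V:11502915-11512869). These 6 peaks had similar widths, so membership near the threshold says little about a single peak.

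The 10 widest domains all lay in the central 50% of a chromosome. The widest, on III, spanned 4906026 to 4947914. Below 30 kb the list went on with III:5689180-5717766 (28587 bp), I:5158009-5186542 (28534 bp), I:4245343-4273733 (28391 bp) and III:9538593-9566330 (27738 bp). The widest domain of IV, at 7770458 to 7800781, was 30324 bp. That of V was the narrowest of the 5 autosomal maxima, at 24575 bp (V:7217237-7241811).

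Broad domains occurred on all 5 autosomes and not on X. Chromosome I carried 130, III 106, II 91, IV 79 and V 40. Per Mb of chromosome, I had 8.65 domains, III had 7.69, II had 5.97, IV had 4.52 and V had 1.92. The order matched that of the narrower peaks, which ran from 51.8 per Mb on I through 50.1 (III), 36.9 (II) and 32.99 (IV) to 25.6 on V. The fall from I to V was steeper for the broad domains.

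As a share of the peaks on each chromosome, broad domains were similar on I, II, III and IV and lower on V. They were 14.3% of the peaks on I (interval 12.1 to 16.7%), 13.9% on II (11.4 to 16.8%), 13.3% on III (11.03 to 15.9%) and 12.1% on IV (9.67 to 14.8%). On V they were 6.97% (5.02 to 9.37%), an interval that overlapped none of the others. On X, 0 of 195 peaks were broad, which allows a share of up to 1.54% when 3 counts are taken as the limit and up to 1.87% by the exact interval. The widest X peak was 6871 bp. Both limits lie below the lower bound on V, 5.02%.

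Covered length followed the order of the numbers per Mb. The share of covered bases in broad domains was highest on I, at 45.8%. It was 42.6% for III, 40.7% for II, 35.9% for IV and 23.1% for V. They lay over 13.5% of the span of I and 12.4% of III, against 2.66% of V. Median widths differed little between chromosomes, from 12729 bp on II to 14387 bp on III.

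Along the chromosomes, the domains were concentrated in the centres. The centre was taken as the central 50% of the span from the first base to the end of the last peak. Of the 446 domains, 335 lay in centres, or 75.1% (interval 70.8 to 79.1%). Of the 3141 narrower autosomal peaks, 1201 did, or 38.2% (interval 36.5 to 39.96%). This position was not used in choosing the domains. The wider peaks of centres are known from the whole list, however, so the direction adds no independent evidence.

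Each autosome showed the same order. The share of broad domains in the centre was 80.0% on I (interval 72.1 to 86.5%), 72.5% on II (62.2 to 81.4%), 76.4% on III (67.2 to 84.1%), 65.8% on IV (54.3 to 76.1%) and 80.0% on V (64.4 to 90.9%). The shares for narrower peaks were 31.96% on I, 38.6% on II, 32.3% on III, 43.8% on IV and 48.7% on V. On all 5 chromosomes the interval of the broad domains lay above that of the narrower peaks, which reached at most 53.0%, on V.

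**Figure D1:**
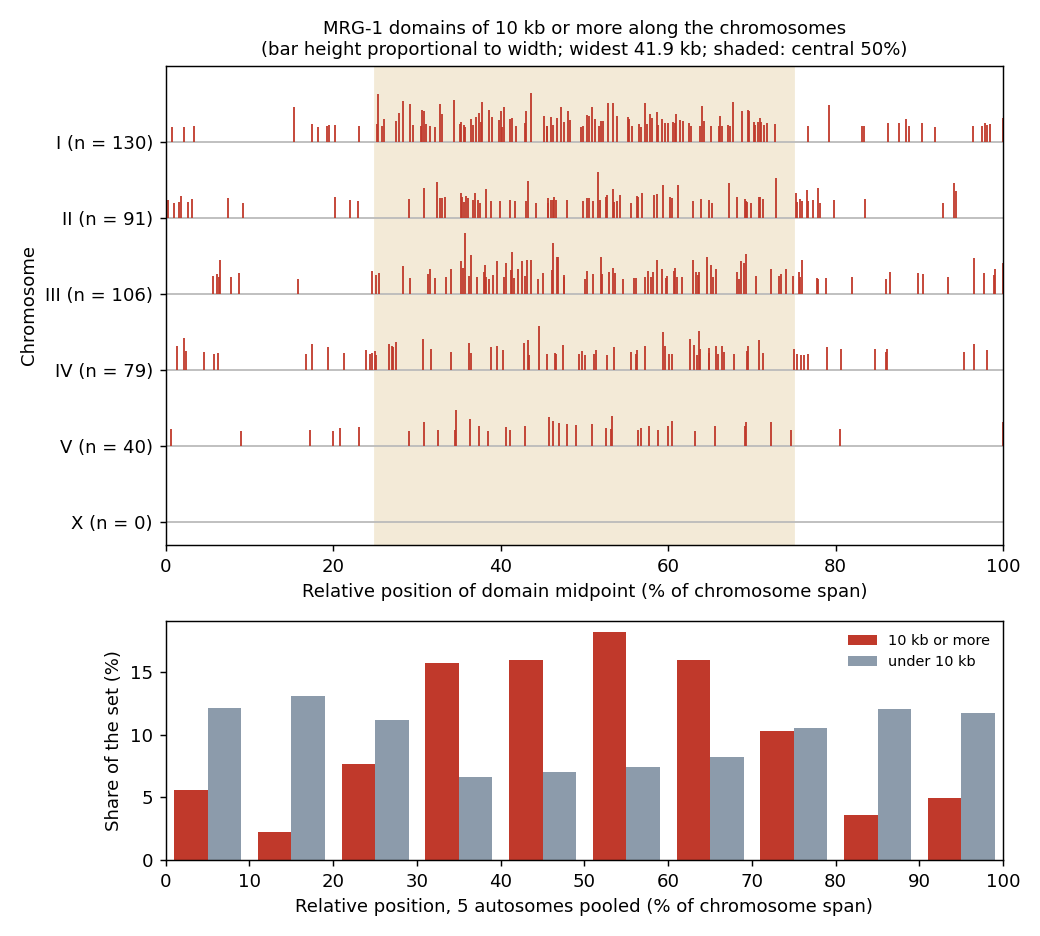
Upper panel: relative position of each domain of 10 kb or more (x axis, % of the chromosome span; 1 bar per domain, height proportional to width) on the 6 chromosomes, with the central 50% shaded. Lower panel: share (%) of the 446 broad domains (red) and of the 3141 narrower autosomal peaks (grey) in each 10% of the span. Broad domains crowd between 30% and 70%, where narrower peaks are fewest, and none lies on X.

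The plot of positions shows a plateau rather than a single summit. In steps of 10% of the span, the 5 autosomes together held 25, 10, 34, 70, 71, 81, 71, 46, 16 and 22 broad domains from the left end to the right end. The 4 steps between 30% and 70% were nearly level, at 15.7 to 18.2% of the domains each. Narrower peaks went the other way, with 6.65 to 8.21% of them in each of those steps and 10.5 to 13.1% in each of the others. Broad domains made up 25.7% of the peaks between 50% and 60%, and 2.38% of those between 10% and 20%.

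Over the 5 autosomes together, the lowest steps lay next to the ends and not at them. The step from 10% to 20% held 10 domains and the outermost one on the left held 25. On the right, the step from 80% to 90% held 16 and the outermost 22. On the left, the outermost step held more than the next on II (8 and 0), III (6 and 1), IV (6 and 3) and V (2 and 1), and fewer on I (3 and 5). On the right, it held more on I (8 and 6), II (3 and 1) and III (7 and 4), fewer on IV (3 and 4) and as many on V (1 and 1). Single bins of this kind hold few domains, and no test was made of the rise towards the tips.

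Domains reached close to the tips of several chromosomes. The last listed peak of I (I:15014473-15031031, 16559 bp) and of III (III:13755572-13776675, 21104 bp) was itself broad, as was a domain near the right end of V (V:20832695-20849421, 16727 bp). On the left, the outermost domains were II:40882-53457, I:104088-114583, V:120155-131549 and IV:228117-244317. That of III lay farther in, at 774257 to 786468. The rightmost domains were at 17112840 to 17126405 on IV and at 14383471 to 14402178 on II.

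Split by width, the covered bases of the 5 autosomes together differed between centres and ends in the broad class and were nearly even in the narrower one. Broad domains lay over 12.8% of the centres and 3.60% of the ends, a ratio of 3.56. Narrower peaks lay over 12.7% of the centres and 12.8% of the ends, a ratio of 0.99. The even total of the narrower peaks was made of unlike chromosomes. Their ratio was 0.759 on III, 0.773 on I, 0.974 on II, 1.20 on IV and 1.57 on V. For broad domains the ratio was above 1 on each autosome, from 2.25 on IV and 2.86 on II through 3.73 on III and 4.68 on V to 5.13 on I.

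**Figure D2:**
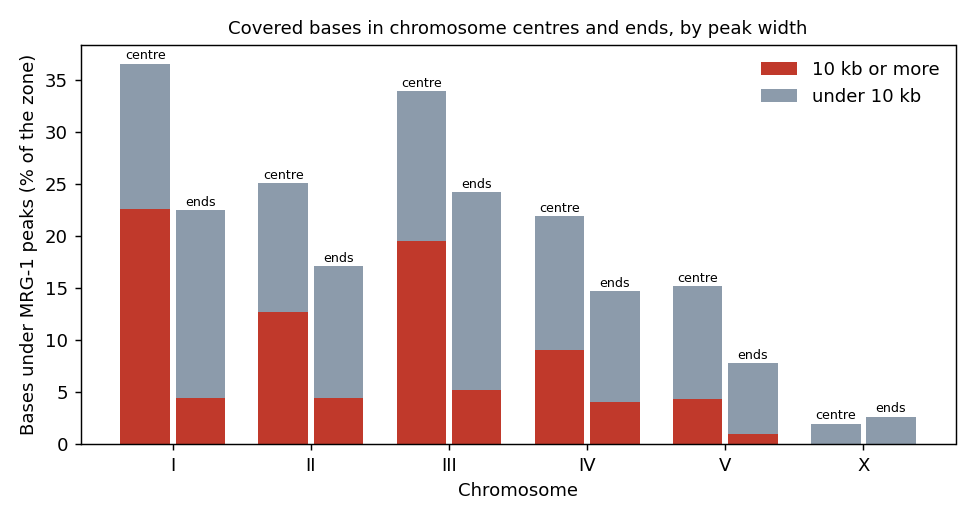
Bases under MRG-1 peaks as a percentage of the centre (central 50%, left bar) and of the ends (right bar) of each chromosome, split into domains of 10 kb or more (red) and narrower peaks (grey). On the 5 autosomes the red part is larger in centres, at 22.6% against 4.41% on I, while X has none.

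Within the covered sequence of the centres, broad domains were the larger part on I (61.8%), III (57.6%) and II (50.7%) and the smaller part on IV (41.6%) and V (28.8%). In the ends they were the smaller part on each autosome, from 11.96% on V to 27.5% on IV. The share in centres grew with the width class. It was 19.6% for autosomal peaks under 2 kb, 44.8% for 2 to 5 kb and 61.4% for 5 to 10 kb. Within the broad set it was 68.5% for 10 to 15 kb (interval 62.7 to 73.9%), 84.9% for 15 to 20 kb (76.0 to 91.5%) and 87.8% for 20 kb or more (78.2 to 94.3%). Of the 74 domains of 20 kb or more, 65 lay in centres.

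Counted in bins of 1 Mb, domains were unevenly spread. The 82 autosomal bins of at least 0.5 Mb held 0 to 17 domains with a median of 4, and 8 bins held none. The 18 bins with 10 or more held 232 domains. These 18 bins, 22.0% of the 82, were enough to hold 50% of the domains, whereas narrower autosomal peaks needed 25 bins (30.5%). The bins were ranked by the same counts, and counting noise alone lowers this number more for the smaller set. The 18 and 25 bins are therefore not a like comparison. The fullest bin was 5 to 6 Mb on III, with 17 domains over 29.7% of its length. On I, 3 bins held 15 domains, of which 7 to 8 Mb was the most covered (25.1% of the length). The fullest bin of II was 5 to 6 Mb (13 domains, 18.7%) and that of IV 11 to 12 Mb (11 domains, 16.3%). On V, 5 bins held 4 domains each and none held more.

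The gap from a broad domain to the nearest other peak of any width was measured from edge to edge. Its median was 3169.5 bp (interval 2334 to 4151 bp) for broad domains and 1005.5 bp (899 to 1094 bp) for narrower peaks. A neighbour within 1 kb was found for 176 of the 446 domains (39.5%, interval 34.9 to 44.2%) and for 49.9% of the narrower peaks (48.2 to 51.7%). Neighbours within 1 kb on both sides were found for 25 domains (5.61%, 3.66 to 8.16%) and for 12.4% of the narrower peaks (11.3 to 13.6%). The nearer neighbour was on the left of 222 domains, so the sides were alike.

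The gap depended on position within the chromosome. In centres the median gap was 4545 bp for broad domains (interval 3377 to 5985 bp) and 1935 bp for narrower peaks (1580 to 2563 bp). In the ends the medians were 599 bp (321 to 1064 bp) and 584.5 bp (536 to 643 bp). The share with a neighbour within 1 kb was 32.8% of the broad domains in centres (27.8 to 38.1%) against 41.6% of the narrower peaks there (38.8 to 44.5%). In the ends it was 59.5% (49.7 to 68.7%) against 58.5% (56.2 to 60.7%), a difference within counting error and of the other sign. The wider spacing around broad domains in the whole list was thus seen in centres and not in the medians of the ends.

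**Figure D3:**
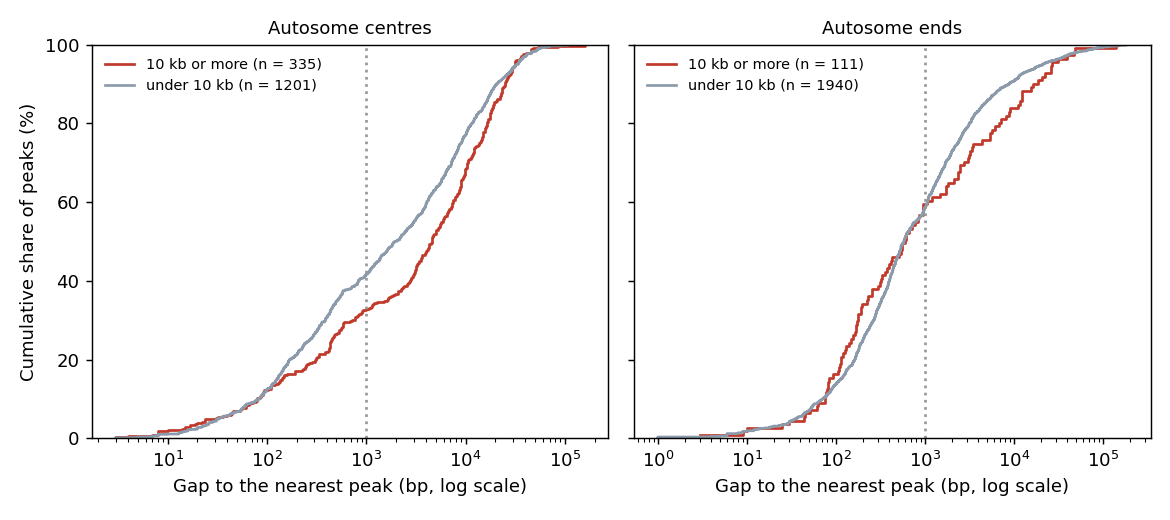
Cumulative share (%) of peaks by the gap to the nearest peak (bp, log scale) in autosome centres (left) and ends (right), for domains of 10 kb or more (red) and narrower peaks (grey); the dotted line marks 1 kb. In centres the red curve lies to the right, with medians of 4545 and 1935 bp, and in the ends the curves cross near the medians.

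In centres the difference was mostly between the narrowest peaks and the rest. The median gap there was 450.5 bp for peaks under 2 kb, 3129 bp for 2 to 5 kb and 3300 bp for 5 to 10 kb (interval 2608 to 4282 bp). It was 4545 bp for 10 to 15 kb (3120 to 6510 bp), 6437 bp for 15 to 20 kb (2961 to 11582 bp) and 3428 bp for 20 kb or more (921 to 5991 bp). The intervals of the broad classes overlapped that of the 5 to 10 kb class. A neighbour within 1 kb was as frequent for peaks of 5 to 10 kb in centres (32.96%) as for broad domains there (32.8%).

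By chromosome, the median gap of the central broad domains was above that of the central narrower peaks on all 5 autosomes. It was 2843.5 against 611 bp on I, 4756 against 2563 bp on II, 3300 against 1397 bp on III, 10090 against 1929.5 bp on IV and 16543 against 5006.5 bp on V. The intervals overlapped on I, II, III and IV and did not on V (7173 to 24215 bp against 3685 to 6481 bp). In the ends the order varied, with broad domains lower on I (241.5 against 495 bp), III (561 against 584 bp) and V (418 against 825.5 bp). They were higher on II (3162 against 823 bp) and IV (774 against 542 bp).

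The flanks were less covered at short range than those of all narrower peaks, but much like those of peaks of 5 to 10 kb. In the 10 kb on either side, other peaks covered a median of 21.1% of the sequence around broad domains (interval 15.6 to 24.7%) and 28.7% around narrower peaks (27.5 to 29.9%). Around peaks of 5 to 10 kb the median was 22.7% (19.4 to 25.8%). In centres alone it was 17.0% around broad domains (12.9 to 23.0%) and 24.7% around narrower peaks (22.4 to 26.9%). In ends these medians were 28.6% (21.1 to 33.4%) and 33.4% (32.4 to 34.9%). Within each zone the intervals of broad domains and narrower peaks overlapped. No other peak lay within 10 kb of 124 domains (27.8%), of 16.7% of the narrower peaks (14.5% on autosomes) and of 23.7% of those of 5 to 10 kb. With flanks of 50 kb the order over all positions turned round, at 26.3% around broad domains (24.2 to 28.4%) and 23.4% around narrower peaks (22.6 to 24.2%). Over all positions the narrower peaks include the 195 on X, where no peak was broad. Their 50 kb medians in autosome centres and in ends, given next, were both above 23.4%. In centres alone the 50 kb medians were 27.7% (25.6 to 29.96%) and 24.98% (23.8 to 26.7%), with overlapping intervals. In ends they stood the other way, at 22.5% around broad domains (19.7 to 26.5%) and 24.5% around narrower peaks (23.3 to 25.2%), also overlapping. Around peaks of 5 to 10 kb the 50 kb median was 23.3% over all positions (22.0 to 24.8%). It was 24.4% in centres (22.4 to 26.9%) and 22.4% in ends (20.0 to 24.2%). Each of these intervals overlapped that of the broad domains.

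The most solitary domain was V:8948073-8962186 (14114 bp), 159141 bp from any other peak. It was followed by IV:16645706-16658327 (12622 bp), at 142305 bp, and IV:5936632-5949003 (12372 bp), at 85071 bp. At the other extreme, some domains lay 3 bp from the next peak. Whether such neighbours are separate sites or pieces of 1 region was not tested.

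Consecutive broad domains on a chromosome were separated by a median of 68.5 kb (interval 58.2 to 79.6 kb, 441 pairs), with quartiles of 25.2 and 184 kb. Chromosome I had the shortest median, 45.9 kb. Those of III, II and IV were 56.8, 71.96 and 116 kb, and V had the longest, 344 kb. Where both domains lay in a centre it was 54.6 kb (44.9 to 64.3 kb), and where both lay in ends 146 kb (98.9 to 217 kb). Gaps over 100 kb made up 39.0% of the pairs, and 11 gaps exceeded 1 Mb, of which 5 were on V.

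The largest gap of each autosome lay in its outer 50%. On V it was 4032 kb, between the domains at 16789064 to 16801097 and 20832695 to 20849421, with 108 narrower peaks between them. On IV it was 1819 kb (after 1098726, with 123 narrower peaks), on I 1783 kb (after 515756, with 131), on II 1657 kb (after 1411866, with 50) and on III 1205 kb (after 2186471, with 89). These stretches lacked broad domains but not MRG-1 peaks.

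In most pairs narrower peaks lay between the domains. The median was 3 peaks, with 2 in centres and 8 in ends. In 87 pairs (19.7%, interval 16.1 to 23.8%) nothing lay between, so the domains were direct neighbours in the list. The median gap of these 87 was 12428 bp (9173 to 17576 bp), and 50 of them were over 10 kb apart.

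**Figure D4:**
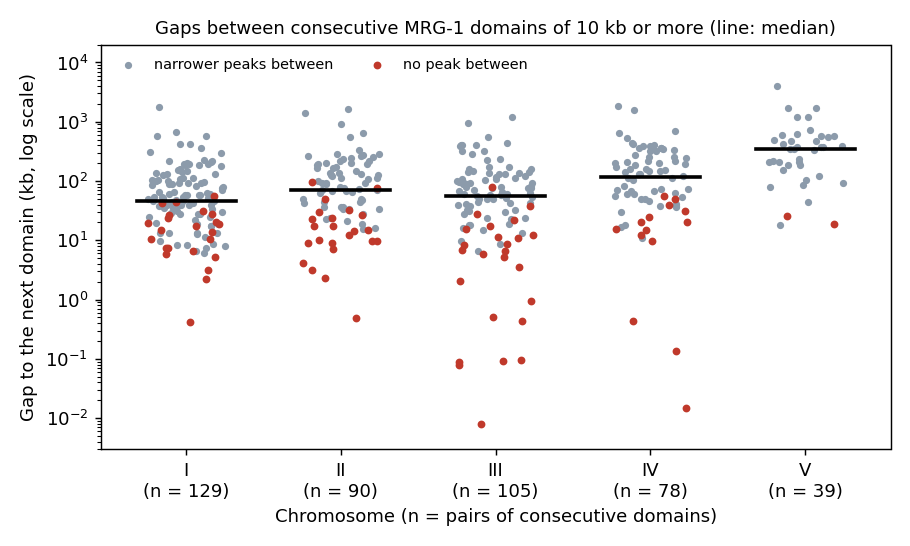
Gap (kb, log scale) from each broad domain to the next one on the same chromosome, 1 point per pair, with red points where no narrower peak lies between and a line at the median. Medians rise from 45.9 kb on I to 344 kb on V, and the gaps under 1 kb are mostly on III.

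Most of the few very short gaps between broad domains were on III. Gaps under 1 kb occurred in 13 pairs, 8 of them on III, 3 on IV and 1 each on I and II. They were 7.62% of the pairs on III (interval 3.35 to 14.5%) and 3.85% on IV (0.80 to 10.8%). On II they were 1.11% (0.03 to 6.04%), on I 0.78% (0.02 to 4.24%) and on V 0% (0 to 9.03%). The interval of III overlapped each of the others. Gaps under 100 bp occurred in 6 pairs, 5 on III and 1 on IV. The closest pair was III:6421514-6447169 (25656 bp) and III:6447178-6472245 (25068 bp), 8 bp apart. The next was IV:11116148-11142766 (26619 bp) and IV:11142782-11157000 (14219 bp), 15 bp apart. The smallest gap on I was 421 bp (before 10565747) and on II 485 bp (before 6960732). On V it was 18.2 kb, before the widest domain of that chromosome.

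Runs of directly neighbouring broad domains numbered 69 and held 156 domains (35.0%). Of these runs, 56 were pairs, 11 were of 3 domains and 1 was of 4. The longest held 7, on II from 5465730 to 5839818, a stretch of 374 kb of which 100.8 kb was covered. Its domains were 10485 to 20006 bp wide and 15117 to 97790 bp apart, so it was a stretch without narrower peaks and not a tight cluster. Of the 7, 5 had a score of 3100 and the others 3083.96 and 1418.92. How many runs would arise from the numbers of peaks alone was not computed. In centres, 21.4% of the neighbours of narrower peaks were broad, close to the 23.0% for broad domains.

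A broad domain had a broad neighbour more often than a narrower peak did, but hardly so in centres. Of all neighbours of broad domains 19.6% were broad (interval 17.0 to 22.3%), against 10.7% of the neighbours of narrower peaks (10.0 to 11.5%). The narrower peaks in this count include the 195 on X, where no peak was broad. In centres the shares were 23.0% (19.8 to 26.4%) and 21.4% (19.8 to 23.1%), with overlapping intervals. In ends they were 9.09% (5.64 to 13.7%) and 5.19% (4.51 to 5.94%), again overlapping. For peaks of 5 to 10 kb the share was 16.4% (14.6 to 18.4%) over all positions. It was 21.7% (19.1 to 24.6%) in centres and 8.35% (6.20 to 10.9%) in ends. All of these intervals overlapped those of the broad domains, so the trait cannot be called particular to the broad set. Overlap does not show that the shares were equal. Each pair of neighbours enters these counts from both sides, so the intervals are too narrow.

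The nearest broad domain was also closer to broad domains than to narrower peaks. On the autosomes its median distance was 31.1 kb from a broad domain (26.3 to 38.3 kb) and 71.0 kb from a narrower peak (65.7 to 76.3 kb). In centres these were 24.8 kb (20.6 to 29.0 kb) and 37.2 kb (33.2 to 40.3 kb). In ends they were 72.4 kb (50.3 to 113 kb) and 121 kb (108 to 128 kb), with overlapping intervals. On I, II, III and IV the median was lower for broad domains, as on III with 20.8 against 55.7 kb. On V it was 190 kb (93.1 to 344 kb) against 180 kb (155 to 214 kb). From peaks of 5 to 10 kb the median was 46.6 kb on the autosomes (43.2 to 53.4 kb) and 37.0 kb in centres (31.8 to 42.0 kb). In ends it was 109 kb (81.2 to 128 kb), which overlapped the interval of broad domains. By chromosome it was above that of broad domains on I (26.9 against 24.8 kb), II, III and IV, and below it on V (122 against 190 kb). These intervals overlapped on each autosome except III. The share with a broad domain within 10 kb was 24.2% for broad domains and 24.5% for narrower peaks in centres, so the closer spacing there was not seen at this short range.

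The authors' score is described without a test. Its scale is not stated. Exactly 3100 was given to 201 of the 446 domains and to 552 of the narrower peaks, and 38 peaks of the list had more. The score may therefore be capped near this value, in which case it does not order the peaks that reach it. Among broad domains it ran from 52.69 to 3230.05 with a median of 2955.17, against 418.61 for narrower peaks. A score of at least 3100 was found for 47.1% of the broad domains and 17.4% of the narrower peaks, and one under 500 for 11.7% and 52.7%.

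Score and width ran together below 10 kb and in opposite directions above it. Spearman's rho across peaks was 0.89 among the 3336 narrower peaks and -0.36 among the 446 broad domains. These peaks share 1 library and many share the score 3100, so rho is a description. The share with a score of 3100 or more was 61.1% for 5 to 10 kb, 59.1% for 10 to 15 kb, 37.6% for 15 to 20 kb and 13.5% for 20 kb or more. Scores under 500 were given to 1.36%, 6.45%, 19.4% and 21.6% of the same classes. The median score was 3100 for both classes between 5 and 15 kb, 2327.34 for 15 to 20 kb and 1365.44 for 20 kb or more.

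**Figure D5:**
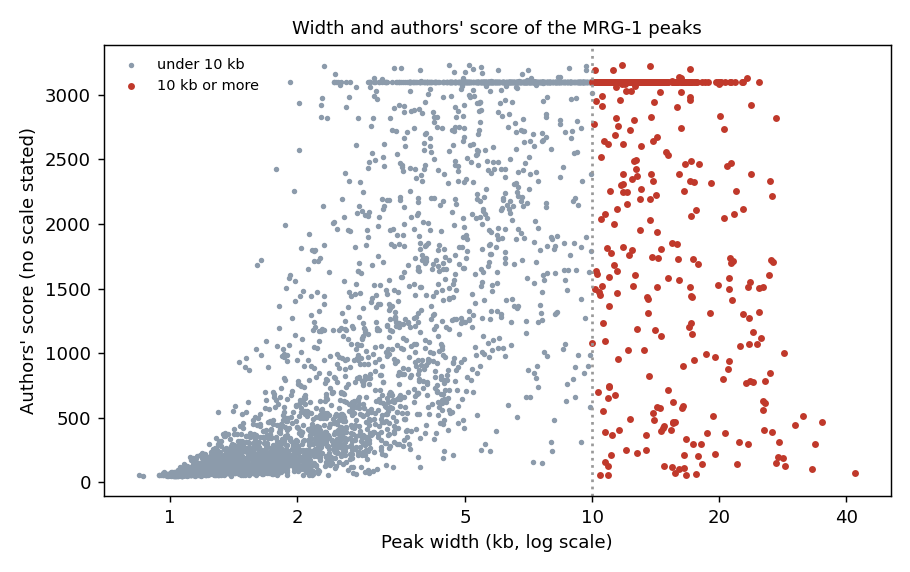
Authors' score (y axis, no scale stated) against peak width (x axis, kb, log scale) for narrower peaks (grey) and domains of 10 kb or more (red), 1 point per peak; the dotted line marks 10 kb. Many peaks lie on a line at 3100, and the widest domains lie low.

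Domains with very low scores included III:2176035-2186471 (10437 bp, score 52.69), IV:10408794-10425485 (16692 bp, 55.96) and III:5719867-5730755 (10889 bp, 57.06). The highest scores were those of III:11282487-11294253 (11767 bp, 3230.05), III:4306771-4320490 (13720 bp, 3225.28) and I:8285476-8302496 (17021 bp, 3197.79). A high or low score was thus found at similar widths. Broad domains in ends had scores of 3100 or more in 56.8% of cases (interval 47.0 to 66.1%), and those in centres in 43.9% (38.5 to 49.4%), with overlapping intervals. Narrower peaks went the other way, at 10.4% in ends and 31.6% in centres. They were less wide in ends, with a median of 1852.5 against 3883 bp. Among those of 5 to 10 kb the shares were 57.1% in ends (51.1 to 62.9%) and 64.1% in centres (59.5 to 68.6%). These intervals overlapped. Broad domains in the ends were also less wide than those in centres, with a median of 12286 against 14163 bp.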

How the data were processed

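The file deposited by the authors lists the peaks of the ChIP library. BWA and the build ce10 are named per the submitters' processing notes, and per the file headers the coordinates are WormBase WS220 and the peaks come from MACS. Versions, settings and any use of the input were not given in the sources used here. These settings decide where a wide region is split into several peaks. The deposited score is the authors' own value per peak and was not used for selection.

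Widths, edge-to-edge gaps and relative positions (midpoint as a share of the span up to the last peak) were computed with pandas 2.3.3, SciPy 1.17.1 and NumPy 2.4.6 under Python 3.11.15. Figures were made in Matplotlib 3.10.9. The functions were tested on 200 simulated lists. Domains were named by fixed rules: widest, nearest the threshold or chromosome tips, smallest and largest gaps, most solitary, longest run, extreme scores, fullest bins. The 10 kb rule and these rules were chosen with earlier results of these data known. Groups followed the titles of the samples. Read counts, genes and sequence were not analysed here. Alternatives were other width thresholds, merging, another centre, another span, leaving out 1 chromosome at a time, zones, midpoint distances and other limits for a close neighbour.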

Additional observations from a re-analysis of the deposited data

How the results depend on the processing

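With thresholds of 8000, 12000 and 15000 bp, broad domains held 47.4%, 29.1% and 19.1% of the covered bases, and their consecutive gaps had medians of 53506, 96817 and 157735 bp. At 12000 and 15000 bp, 79.9% and 86.2% of them lay in centres. At 15000 bp their number was 167 and 34.1% had a peak within 1 kb. After merging within 1 kb these regions held 54.7% of the covered bases, 66.0% lay in autosome centres, and the median gap to the nearest region was 6204.5 bp. A central 33% held 55.8% of the domains. Leaving out chromosome I, II, III, IV, V or X gave 35.7%, 37.7%, 36.9%, 38.7%, 40.6% and 39.1% of the covered bases, and leaving out I a consecutive gap of 79727.5 bp. In centres only, the median gap was 4545 bp, 32.8% had a peak within 1 kb and consecutive gaps had a median of 54580 bp. In ends only these were 599 bp, 59.5% and 145657 bp. Between midpoints the distances were 14796 bp to the nearest peak and 83617 bp between domains. A neighbour within 500 bp or 5 kb was found for 31.4% and 57.8%. The larger share in centres kept its direction against narrower peaks in 12 of 12 alternatives. Among these, leaving out X could not change it, because the share counts autosomal peaks only. The longer gap kept its direction in 11 of 11. Ends only (599 against 584.5 bp, overlapping intervals) and midpoint distances, which the width of the domains lengthens by itself, were not counted there. The lower share with a peak within 1 kb kept its direction in 12 of 13, the exception being ends only. No paired analysis was possible because ChIP and input were single libraries and 1 peak list was analysed here. Unknown depth and caller settings limit all values. The cause of these shifts was not tested.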

Other observations

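Merging peaks less than 1 kb apart changed which regions count as broad. It turned the 3782 peaks into 2643 regions, of which 586 reached 10 kb. Of these, 429 held at least 1 of the original broad domains, 17 held 2 or more, and 157 were assembled from narrower peaks alone. The original domain stood alone in 270 of them, 60.5% of the 446. Merged regions of 10 kb or more had a median width of 14690 bp and held up to 11 peaks. None lay on X, where 0 regions reached 10 kb.

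The widest merged regions lay on III and I. The first, III:4887712-4947914, was 60203 bp and joined the widest peak to another broad domain. It was followed by III:6338067-6397275 (59209 bp), III:6415541-6472245 (56705 bp) and I:4911133-4967604 (56472 bp), each with 2 broad domains. On IV, 11116148 to 11157000 made a region of 40853 bp from 2 broad domains alone.

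Several isolated domains lay on V. Of the 10 broad domains farthest from another one, 8 were on V. The most distant was V:20832695-20849421, 4032 kb from the next. Among the autosomes, V had the fewest broad domains per Mb (1.92). Narrower peaks on V lay about as far from a broad domain, at a median of 180 kb against 190 kb for broad domains.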
